A study of Mus musculus with 4 samples.

Results

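The 35 genes described here encode the machinery that brings secreted and membrane proteins into the endoplasmic reticulum (ER), folds them there and removes those that misfold, together with the sensors and transcription factors of the unfolded protein response. They were chosen as a named list and matched to the gene name column of the arrays, and each gene was read by its brightest probe, by the mean over 4 arrays. All 35 were found among 28307 genes or names on the array, with 68 of its 41174 probes. Of these genes 17 had a single probe and 18 had several. Every gene of the list was well above background on all 4 arrays by the scanner software's own mark, so none was lost to the filter on dim probes.

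RNA came from B220 B cells, lymphocytes marked by B220, a form of the CD45 phosphatase, freshly isolated from naive mice. The groups were marrow cells labelled Mef2c KO and marrow cells of C57BL/6 mice (WT), and spleen cells labelled Mef2c KO and spleen cells of C57BL/6 mice, with 1 array each. How many animals stand behind an array, how old they were and of which sex is not stated in the labels, nor are the deleted part of Mef2c, any Cre driver or the knockout's strain background. The labels name no agent given to any group.

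Since each group has a single array, differences within a tissue could not be set against a spread between replicates, and 4 arrays limit the precision. A level is the log2 signal minus the log2 of the 75th percentile on its array. A difference is taken on this log2 scale as KO minus WT, or as spleen minus marrow. The spleen array labelled KO stood apart in gene signal: its 75th percentile was 524, against 966 to 1012 on the other arrays. Of its gene spots 59.3% were well above background, against 69.1% to 72.0%. Spike-in controls gave another order. Their median signal was 443 for spleen WT, 1223 for spleen KO, 1888 for marrow WT and 2210 for marrow KO. Spike-ins were thus brighter on spleen KO than on spleen WT, while the 75th percentile was lower. Scaling to them was not run. It would lower every KO minus WT difference in the spleen and place the whole list below 0 there. The rise of the spike-in median from spleen WT to spleen KO exceeds that of every list gene's unscaled signal. Marrow and spleen arrays lay on different slides, so tissue and slide cannot be told apart, and KO and WT always lay at the same slide positions, so genotype cannot be told apart from position either. The brighter of 2 Mef2c probes was not lower on the arrays labelled KO (5511 on KO and 4218 on WT in the marrow, 11838 on KO and 8534 on WT in the spleen), and the dimmer probe differed by 0.36 and by -0.61, so every direction below rests on the labels. All 10 B cell markers were well above background on all 4 arrays. Neutrophil markers were also present: their summed scaled signal was 1497 on marrow KO and 437 on marrow WT, and 145 on spleen KO and 11.5 on spleen WT.

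A protein bound for secretion is recognised by the signal recognition particle, threaded through the Sec61 channel, trimmed by signal peptidase, and folded by chaperones and disulphide isomerases in the ER. When unfolded protein accumulates, the membrane sensors Ire1 (Ern1), PERK (Eif2ak3) and Atf6 raise the transcription of this machinery through Xbp1, Atf4 and the cleaved Atf6 protein. In the B lineage the pathway is best known for the expansion of the ER when B cells become antibody-secreting plasma cells, which requires Xbp1.

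Cleaved Atf6 and Xbp1 bind the ER stress response element (ERSE) and its shorter form ERSE-II. Promoter windows of 300 bases, 250 before and 50 after each gene's start, were available from RefSeq for 31 of the 35 genes (build GRCm38.p6), and both strands were searched. ERSE was found in 8 of the 31 (25.8%), against 37 of 27025 genes with such a window (0.137%). ERSE-II was found in 2 of the 31 (6.45%), against 0.0444% of all genes. The unfolded protein response element (UPRE) was found in 0 of the 31 and in 0.714% of all genes. The matches were not used to choose the genes. The genes were listed for known roles in this response, and the search patterns came from general knowledge of its elements. The shares above therefore describe the list and are not an independent result. Capitals mark the element, written 5′ to 3′ on the gene's strand; in Calr, Creld2 and the element of Hsp90b1 nearer the start it lies on the other strand.
Hspa5: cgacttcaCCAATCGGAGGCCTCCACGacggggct
Hsp90b1: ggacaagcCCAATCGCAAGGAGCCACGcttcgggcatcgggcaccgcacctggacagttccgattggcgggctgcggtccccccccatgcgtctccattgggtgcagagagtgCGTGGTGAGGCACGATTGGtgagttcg
Calr: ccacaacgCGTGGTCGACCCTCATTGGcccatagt
Canx: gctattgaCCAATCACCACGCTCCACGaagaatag
Pdia6: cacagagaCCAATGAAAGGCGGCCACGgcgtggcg
Dnajc3: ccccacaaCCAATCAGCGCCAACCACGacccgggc
Creld2: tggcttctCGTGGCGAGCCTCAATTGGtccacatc
Syvn1: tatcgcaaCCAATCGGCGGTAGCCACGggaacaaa
Herpud1: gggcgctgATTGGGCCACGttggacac
Dnajb11: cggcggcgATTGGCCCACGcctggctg

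Coordinates are those of the printed stretches, which hold 8 bases on either side of the element. In the Hspa5 stretch (chr2:34772017-34772051, plus strand) the element began 65 bases before the start, and in the Calr stretch (chr8:84847067-84847101, minus strand) 162 bases before it. The Hsp90b1 stretch (chr10:86705525-86705664, minus strand) holds 2 elements, which began 212 and 107 bases before the start. In the Herpud1 stretch (chr8:94386369-94386395, plus strand) the element began 52 bases before the start, and in the Dnajb11 stretch (chr16:22857844-22857870, plus strand) 7 bases after it. The other matches began 44 (Syvn1) to 145 bases (Canx) before the start. A match describes the letters of the window and is not evidence of binding.

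In the marrow, where B cells develop, no gene of the list was 2-fold apart between the array labelled KO and the WT array. Of the 35 genes 0 were at least 2-fold apart, while 13.2% of the 21232 genes measured in that comparison were (8.37% higher, 4.87% lower). In the brightest quartile of genes, which held 30 of the 35, the shares were 3.12% higher and 2.25% lower. The median difference was -0.04, with 16 genes above 0 and 19 below, against -0.07 over all genes and 0.03 over the brightest quartile. The differences ran from -0.72 for Herpud1, an ER membrane protein that aids degradation, to 0.63 for Pdia3, a disulphide isomerase. For scale, repeated spots of a probe differed within an array by a median SD of 0.101 to 0.141, which covers spotting only.

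In the spleen, where mature B cells reside, the array labelled KO was higher than WT for most of the list after scaling to the 75th percentile. There 14 of the 35 genes (40%) were at least 2-fold higher and 1 (2.86%) was at least 2-fold lower, while of 19812 genes measured there 34.2% were 2-fold apart, 19.6% higher and 14.6% lower. The median difference was 0.81, with 28 genes above 0 and 7 below. The list is a bright list, and bright genes as a whole were higher on this array: in the brightest quartile of genes the median was 0.69, with 34.99% standing 2-fold or more above WT and 6.42% below it. Of the 30 list members in that quartile 14 (46.7%) were at least 2-fold higher and 0 were lower, with a median of 0.95. The other 5, which were Dnajb9, Sel1l, Ern1, Xbp1 and Ddit3, had 0 higher and 1 lower, with a median of -0.34. Before any scaling, 16 of the 35 had a higher signal on spleen KO than on spleen WT, as did 20.0% of all probes measured there. In these bulk samples fewer cells of a type and less RNA per cell cannot be told apart.

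**Figure D1:**
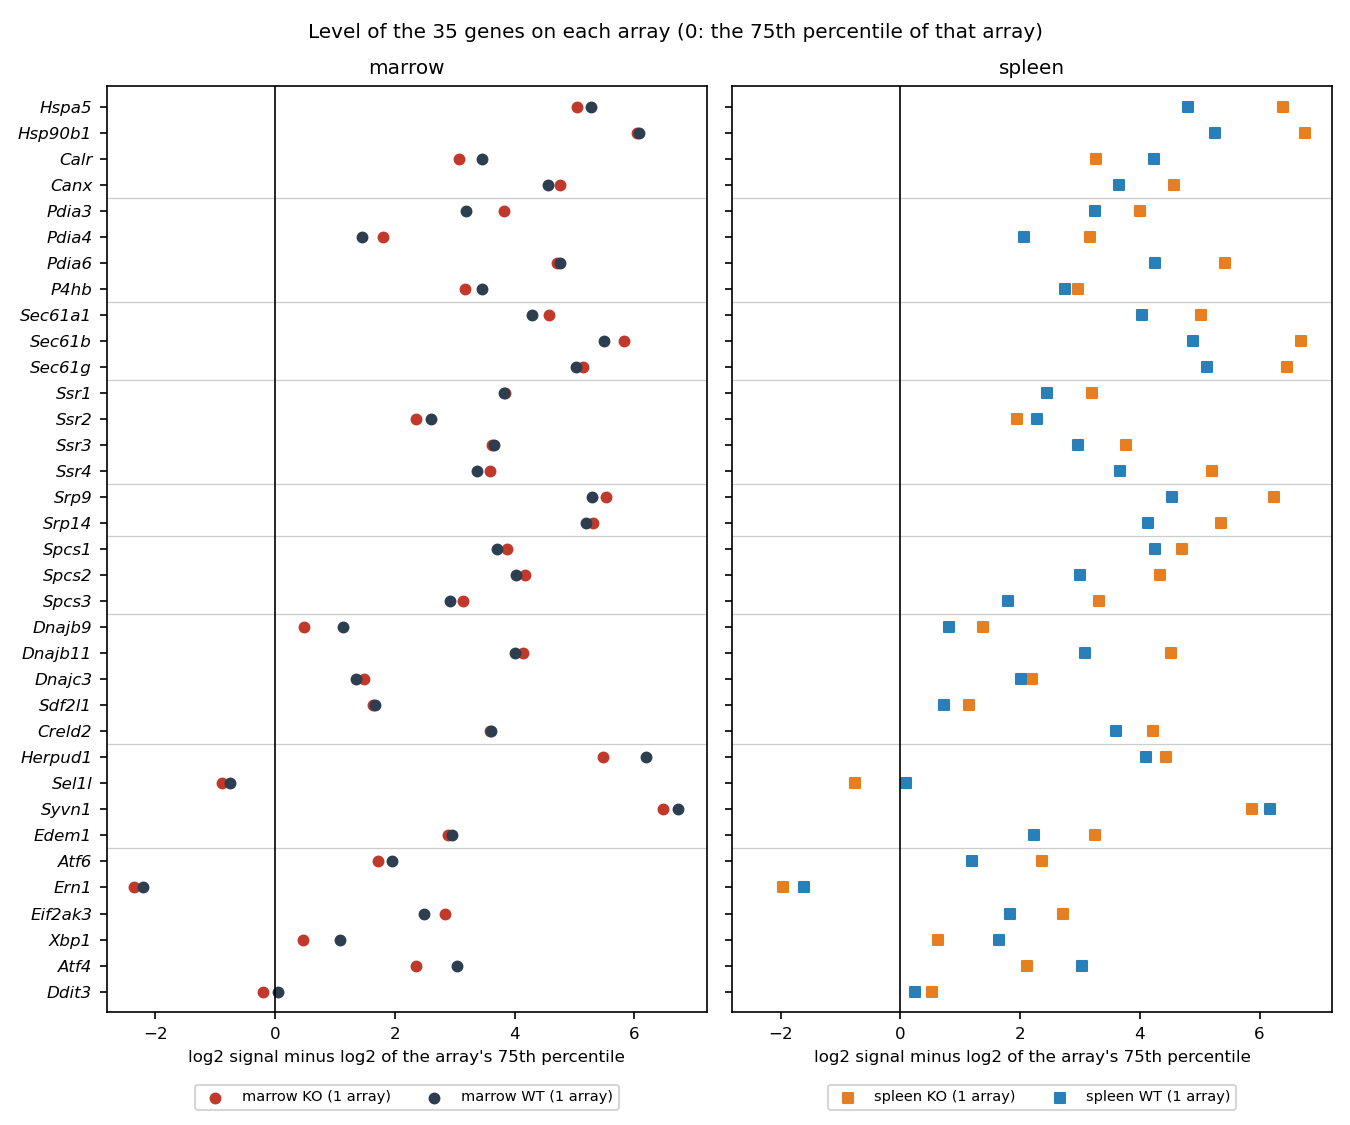
Level of each of the 35 genes (log2 signal minus the log2 of that array's 75th percentile) on the marrow arrays (left) and the spleen arrays (right), 1 array per point and no error bars, with grey lines between functional groups. The KO and WT points of the marrow lie close together, while most spleen KO points lie right of the WT points. Points of different genes come from different probes and are not comparable with each other.

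The 4 general chaperones and lectins differed in direction. Hspa5 encodes BiP, the main Hsp70 chaperone of the ER which also holds the stress sensors inactive. Its signal was 33422 on marrow KO and 37237 on marrow WT, and 43963 on spleen KO and 27197 on spleen WT. The spleen KO array had the highest of its 4 signals, and the difference was 1.59 (3.001-fold higher) in the spleen and -0.22 in the marrow. Hsp90b1, the ER form of Hsp90, had 66662 on marrow KO and 65600 on marrow WT, and 56546 on spleen KO and 37094 on spleen WT. It differed by 1.501 in the spleen and by -0.04 in the marrow. Canx, the membrane lectin calnexin that holds glycoproteins during folding, differed by 0.91 in the spleen and 0.19 in the marrow.

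Calr, the soluble counterpart of calnexin, went the other way. Its signal was 8549 on marrow KO and 10551 on marrow WT, and 5026 on spleen KO and 18330 on spleen WT. It was lower on the KO array of both tissues, at -0.97 in the spleen and -0.37 in the marrow. Its promoter carries the same element as those of Hspa5, Hsp90b1 and Canx. A probe of Calr nearer the 5′ end was also lower on both KO arrays, at -1.85 in the spleen and -1.36 in the marrow.

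The 4 protein disulphide isomerases, which form and reshuffle disulphide bonds such as those of antibody chains, were all above 0 in the spleen, with 2 at least 2-fold higher. Pdia6 differed by 1.17, Pdia4 by 1.09, Pdia3 by 0.74 and P4hb by 0.21. In the marrow Pdia3 had 14315 on KO and 8852 on WT (0.63, 1.54-fold higher), Pdia4 differed by 0.35, Pdia6 by -0.05 and P4hb by -0.27. Marrow KO had the highest of the 4 Pdia3 signals.

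The list's genes of the signal recognition particle, the Sec61 channel and signal peptidase all lay above 0 in both tissues. Sec61a1 and Spcs1 in the spleen and Sec61a1, Sec61g and Srp14 in the marrow changed sign under other settings. Outside the list, Srp68 (-0.99 in the marrow, -0.84 in the spleen) and Sec61a2 (-0.32, -0.82) lay below 0 in both tissues. Srp19, Srp54a, Srp72, Sec11a and Sec11c lay above 0 in both. The signal recognition particle was represented by Srp9 and Srp14, which bind its RNA as a pair. Srp9 had 46494 on marrow KO and 37827 on marrow WT, and 39713 on spleen KO and 22514 on spleen WT, a difference of 0.23 in the marrow and 1.71 in the spleen. Srp14 differed by 0.12 and 1.22. Of the 3 subunits of the Sec61 channel, Sec61b had 57435 on marrow KO and 43326 on marrow WT, and 54177 on spleen KO and 28819 on spleen WT. Its spleen difference of 1.80 (3.49-fold higher) was the largest of the list, and it differed by 0.34 in the marrow. Sec61g differed by 1.33 in the spleen and 0.12 in the marrow. Sec61a1, the pore-forming subunit, differed by 0.99 and 0.28.

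The signal peptidase subunits Spcs1, Spcs2 and Spcs3 differed by 0.46, 1.35 and 1.51 in the spleen and by 0.18, 0.15 and 0.21 in the marrow. Spcs3 had 8936 on marrow KO and 7357 on marrow WT, and 5197 on spleen KO and 3396 on spleen WT. The 4 subunits of the translocon-associated protein complex (TRAP), which assists the entry of some proteins, were less alike. Ssr4 had 12216 on marrow KO and 9949 on marrow WT, and 19418 on spleen KO and 12361 on spleen WT, a spleen difference of 1.54. Ssr3 differed there by 0.81, Ssr1 by 0.76 and Ssr2 by -0.34. In the marrow the 4 ran from -0.25 (Ssr2) to 0.23 (Ssr4).

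All 5 co-chaperones were above 0 in the spleen, where Dnajb11, a partner of BiP, was the only member of this group at least 2-fold higher, at 1.44. Creld2 differed by 0.62, Dnajb9 by 0.58, Sdf2l1 by 0.41 and Dnajc3 by 0.18. Dnajb9, a BiP partner that keeps Ire1 inactive, had 1419 on marrow KO and 2131 on marrow WT, and 1372 on spleen KO and 1705 on spleen WT. Its marrow difference of -0.65 was the lowest of the co-chaperones, and the other 4 lay between -0.04 and 0.14 there.

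Of the 4 genes of ER-associated degradation, which returns misfolded protein to the cytosol for destruction, all lay below 0 in the marrow and 2 did in the spleen. Herpud1 had 44813 on marrow KO and 70483 on marrow WT, and 11302 on spleen KO and 16682 on spleen WT. Its signal was lower on the KO array in both tissues as read, but after scaling the spleen difference was 0.33, against -0.72 in the marrow. Sel1l, the scaffold of the ubiquitin ligase Syvn1, had 545 on marrow KO and 573 on marrow WT, and 311 on spleen KO and 1040.4 on spleen WT. It differed by -0.85 in the spleen and by -0.14 in the marrow. Syvn1 itself differed by -0.31 and by -0.26, and Edem1, which recognises mannose-trimmed glycoproteins, by 1.02 (spleen) and by -0.07 in the marrow.

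The sensors and transcription factors split. Atf6 differed by 1.17 in the spleen and by -0.23 in the marrow, Eif2ak3 by 0.88 and 0.35, and Ern1, with signals from 135 to 317, by -0.34 and -0.15. Xbp1, which Ire1 activates by cutting its mRNA, had 1396 on marrow KO and 2059 on marrow WT, and 809 on spleen KO and 3040 on spleen WT. It was lower on both KO arrays, at -1.02 (2.02-fold) in the spleen, where it was the only list member at least 2-fold lower, and at -0.63 (1.55-fold) in the marrow. Atf4, translated when PERK or another kinase phosphorylates eIF2 alpha, had 5195 on marrow KO and 7974 on marrow WT, and 2282 on spleen KO and 7962 on spleen WT. It too was lower on both KO arrays, at -0.91 (1.88-fold) in the spleen and -0.69 (1.61-fold) in the marrow. Ddit3, which encodes the stress factor Chop, had 877 on marrow KO and 1002 on marrow WT, and 753 on spleen KO and 1153 on spleen WT. Its difference was 0.28 in the spleen and -0.26 in the marrow.

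Xbp1 and Atf4 each rest on 1 probe in the coding sequence, shown because their regulation acts largely on splicing and translation, which an mRNA level does not report. The Xbp1 probe lies at position 894 of the transcript (mm9 chr11:5424970-5425029, plus strand), downstream of the stretch that Ire1 removes, so it reads the spliced and the unspliced form alike. The Atf4 probe lies at position 832 (mm9 chr15:80087079-80087138, plus strand).
Xbp1 probe: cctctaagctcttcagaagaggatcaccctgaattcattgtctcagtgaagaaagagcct
Atf4 probe: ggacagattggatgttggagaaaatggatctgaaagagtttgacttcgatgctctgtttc

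**Figure D2:**
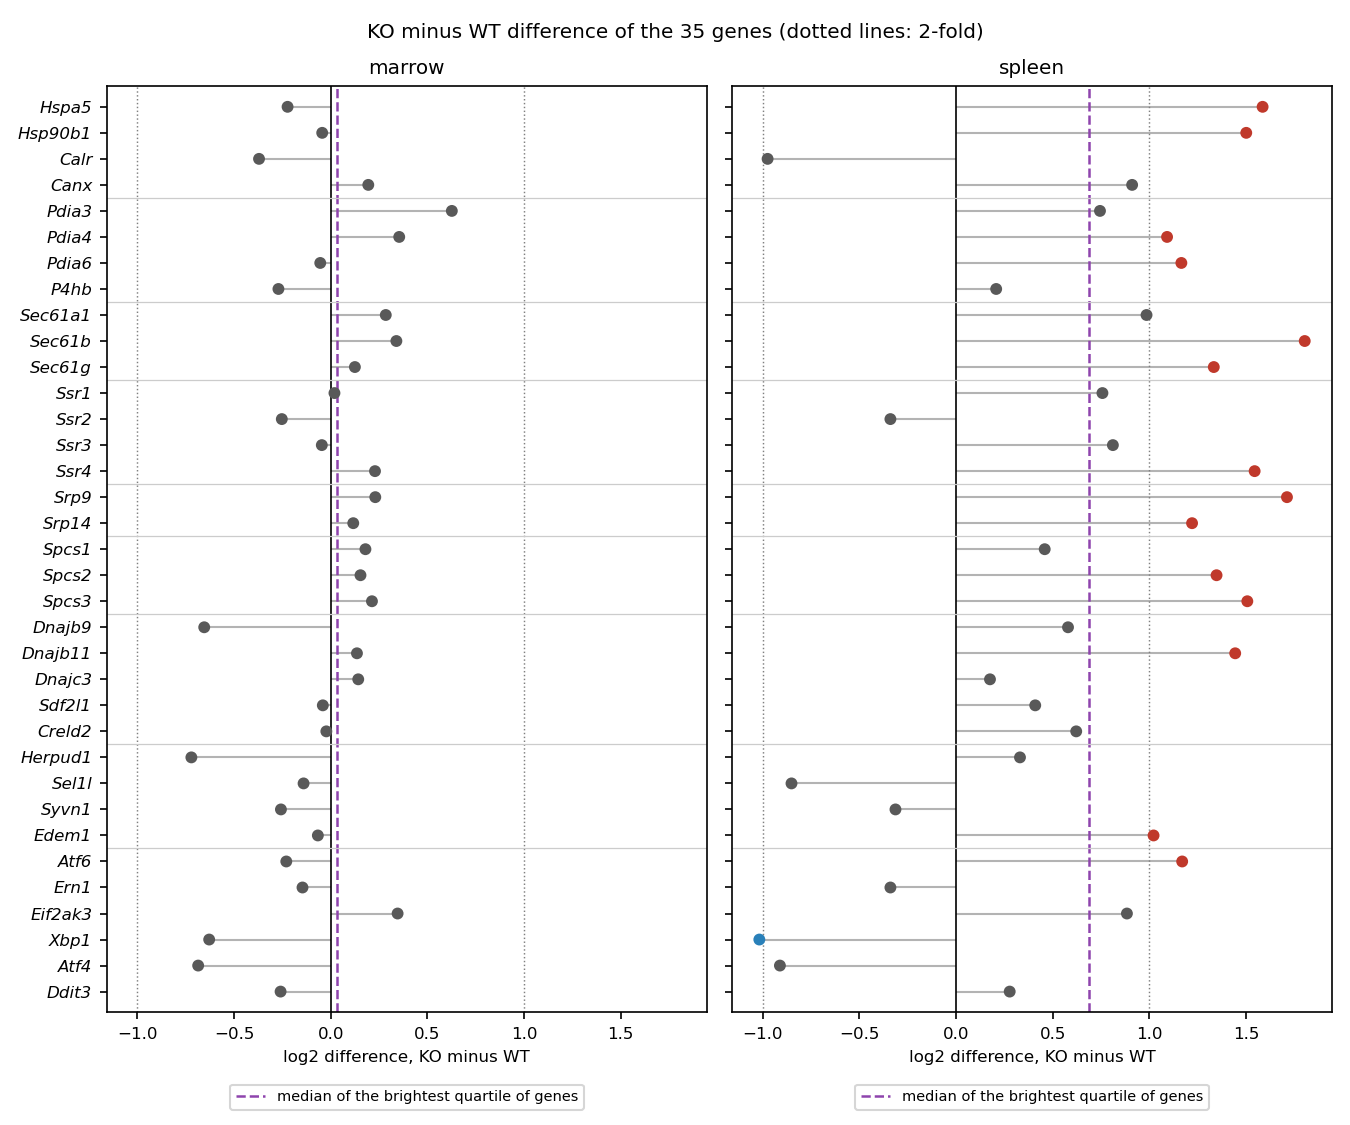
Log2 difference, KO minus WT, of each of the 35 genes in the marrow (left) and the spleen (right), with 1 array per group and no error bars. Red points are at least 2-fold higher, the blue point at least 2-fold lower, and the dashed line is the median of the brightest quartile of all genes (0.03 in the marrow, 0.69 in the spleen). The 14 red points and the blue point of Xbp1 all lie in the spleen panel.

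The spleen result depended on how the arrays were made comparable. Quantile normalization left 2 of the 35 genes 2-fold or more above WT and 3 as far below, and with cyclic loess 0 were higher and 4 lower. Of all genes with a value 19.2% were higher and 13.6% lower with quantile normalization, and 16.9% and 15.7% with cyclic loess. The median of the 35 was 0.24 and 0.16 under these 2 settings, against 0.14 and 0.07 in the brightest quartile of genes. With the array median subtracted, 22 were higher, 0 were lower and the median was 1.24, against 1.11 in the brightest quartile. Of all genes 35.8% were then higher and 9.09% lower. With normexp background correction 13 were higher and 0 lower, against 17.8% and 7.76% of all genes. Taking each gene's median probe 11 were higher and 3 lower, against 15.6% and 17.9% of all genes. All genes together shifted too: their spleen median was 0.16 as reported here, 0.62 with the array median, 0.19 with quantile normalization, 0.08 with cyclic loess, 0.34 with normexp and -0.00 with the median over probes.

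Under all of these settings, none of which scaled to the spike-ins, 18 of the 35 genes stayed above 0 in the spleen. Among them were Hspa5 (0.61 to 2.01), Sec61b (0.78 to 2.23) and Srp9 (0.74 to 2.14). The median over probes could not change the 17 genes with a single probe, which include Hspa5, Sec61b, Xbp1 and Atf4. The filters on background could not change any of the 35, since all were above background on every array. Calr, Sel1l, Xbp1 and Atf4 stayed below 0 in the spleen, and 13 genes changed sign: Canx, Pdia6, P4hb, Sec61a1, Ssr2, Spcs1, Dnajb9, Dnajc3, Creld2, Herpud1, Syvn1, Edem1 and Ern1. In the marrow 11 stayed above 0, 17 below, and 7 changed sign. Calr, Sel1l, Xbp1 and Atf4 were thus below 0 in both tissues under every setting run. No setting read the dimmest of the 3 Sel1l probes alone. With signals from 37.9 to 151, that probe lay above 0 in both tissues (0.25 in the marrow, 0.78 in the spleen). For Xbp1 the range was -1.26 to -0.59 in the spleen and -0.64 to -0.59 in the marrow, and for Atf4 it was -1.44 to -0.48 and -0.79 to -0.64.

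**Figure D3:**
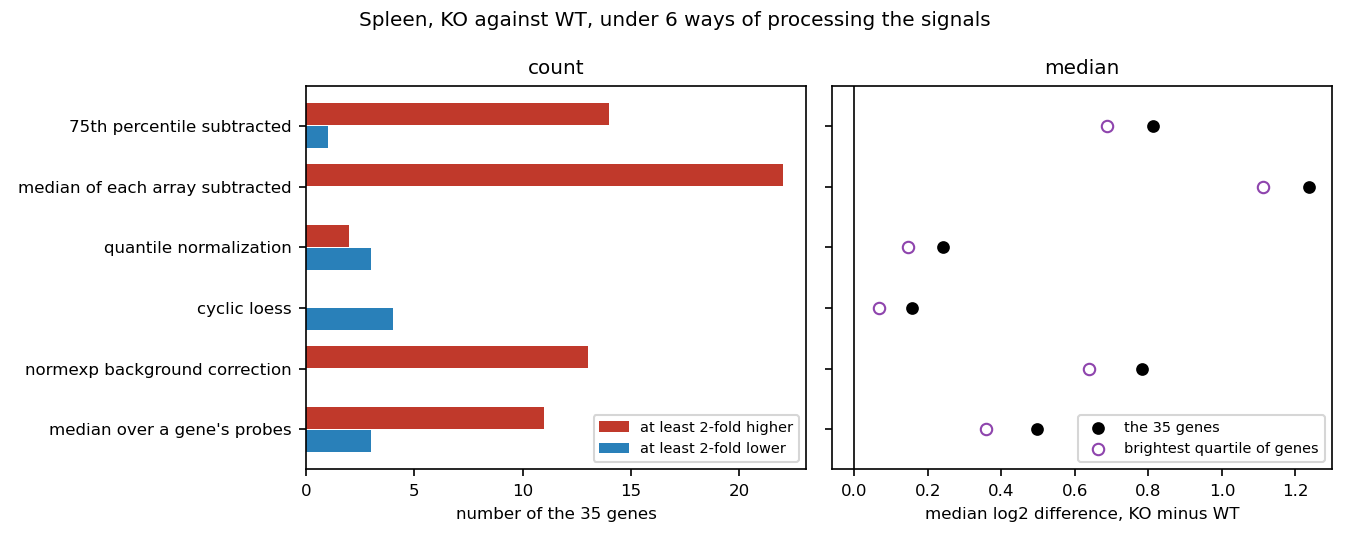
Number of the 35 genes at least 2-fold higher (red) or lower (blue) on the spleen array labelled KO than on spleen WT (left), and the median log2 difference of the 35 genes (filled) and of the brightest quartile of all genes (open) (right), under 6 ways of processing the signals. The number higher runs from 0 with cyclic loess to 22 with the array median subtracted, and the list's median lies above that of the brightest quartile in every row.

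The limma model with tissue and genotype as terms, which takes both tissues as repeats of a shared genotype effect with 1 residual degree of freedom, called 0 of the 35 genes for genotype after Benjamini-Hochberg adjustment over 22059 genes, and 0 at an unadjusted p below 0.05. Over all genes it called 2 (0.00907%; Jhy and Klk1b24), and 10.5% passed unadjusted. The smallest adjusted p of the list was 0.549, for Sec61b (1.07, SE 0.576), which was higher on KO in both tissues. Xbp1 had -0.82 (SE 0.522, adjusted p = 0.608) and Atf4 -0.80 (SE 0.519, adjusted p = 0.616), each lower on KO in both tissues. Whether the genotype difference itself differs between the tissues could not be tested, since a fit with that term has 0 residual degrees of freedom.

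For 16 genes the list had outermost probes on the same reference transcript, all well above background on every array. In the spleen the probe nearer the 3′ end gave the higher KO minus WT value in 12 of 16 (75%), with a median gap of 0.71, and 8 (50%) of the pairs were over 2-fold apart. Among 3734 genes with such a pair the figures were 70.1%, 0.45 and 40.9%. In the marrow the gap was smaller: 0.11 for the list, with 2 of 16 over 2-fold apart, and 0.13 for all such genes, with 5.97%.

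The widest gap was in Pdia6, whose value as reported rests on a 3′ probe. Its probe at position 87 of the transcript (mm9 chr12:17277232-17277291, plus strand) had 124 on spleen KO against 1663 on spleen WT, or -2.86 on the log2 scale, and 399 on marrow KO against 862 on marrow WT, or -1.18. The probes at positions 1511 and 1871 differed by 1.17 and 1.07 in the spleen and by -0.05 and -0.10 in the marrow. Sec61a1, Atf6, Canx and Edem1 also had a 5′ probe below 0 and a 3′ probe above 0 in the spleen, with 5′ values of -0.41, -0.17, -0.30 and -0.19. Inner probes of Sec61a1 (position 2320), Edem1 (position 3399) and Canx (position 3062) lay lower still there, at -1.56, -1.35 and -0.43. Dnajc3 ran the opposite way, with 0.18 at position 939 and -0.99 at position 2343. For Calr both probes were below 0, and for Hsp90b1, Srp9 and Ssr4 both were above 0. The 5′ probe of Pdia6 is shown because it gave the widest gap, and that of Calr because both Calr probes were below 0 in both tissues.
Pdia6 probe at position 87: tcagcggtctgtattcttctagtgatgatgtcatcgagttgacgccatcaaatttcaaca
Calr probe at position 719: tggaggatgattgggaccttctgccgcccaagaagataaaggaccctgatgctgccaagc

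**Figure D4:**
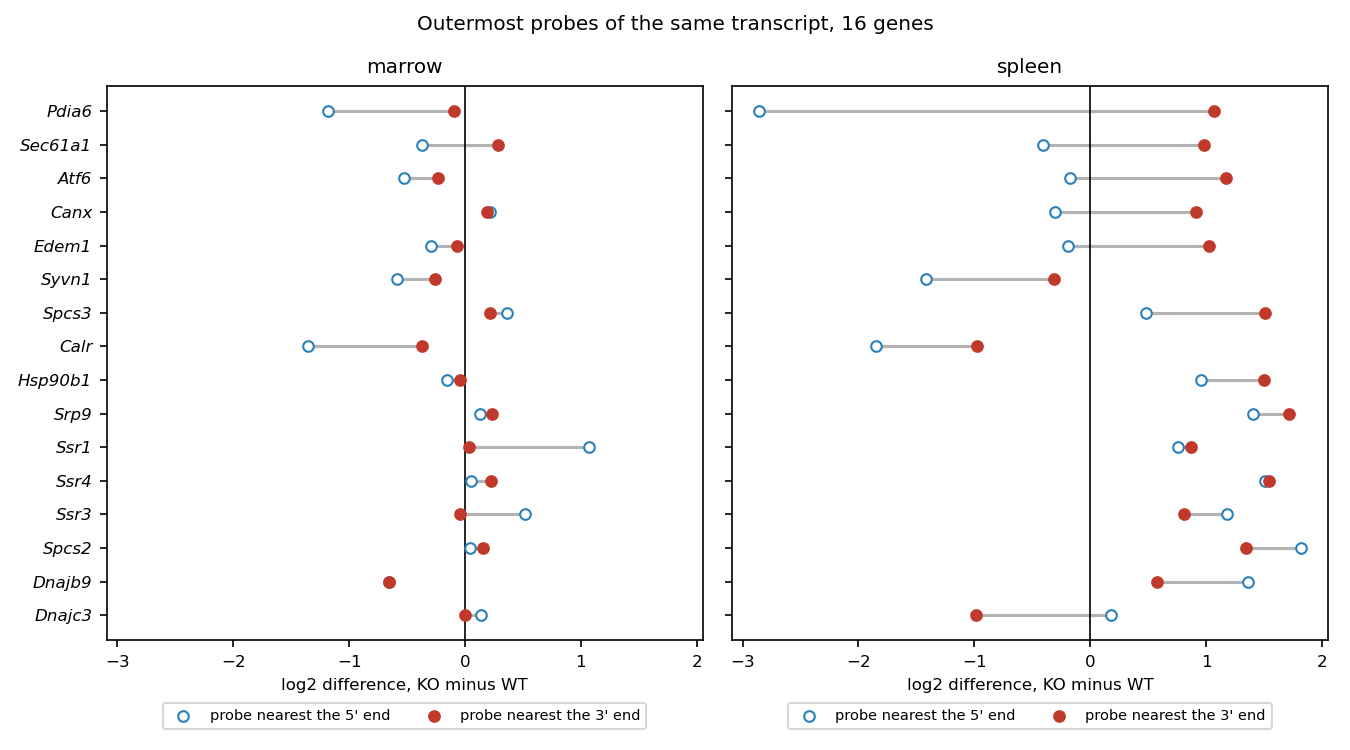
Log2 difference, KO minus WT, by the probe nearest the 5′ end (open) and nearest the 3′ end (filled) of the same transcript, for 16 of the 35 genes in the marrow (left) and the spleen (right), 1 array per group and no error bars. In the spleen 12 of the 16 filled points lie right of the open point, and 6 pairs lie on opposite sides of 0.

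For the 10 genes with an ERSE or ERSE-II element the spleen median was 0.77, with 4 at least 2-fold higher and 0 lower, and -0.05 in the marrow. The other 21 genes with a promoter window had medians of 0.76 and 0.02, with 8 higher and 1 lower in the spleen. Of all genes measured there 19.6% were higher and 14.6% lower, and in the brightest quartile 34.99% and 6.42%. The 2 groups differ in brightness: all 10 with an element lay in that quartile, against 16 of the 21. Within the 10, spleen differences ran from -0.97 (Calr) to 1.59 (Hspa5).

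Between tissues the median of the list lay below 0 on WT arrays and above 0 on KO arrays, and its size depended on the scaling. On WT arrays 0 of the 35 were at least 2-fold higher in the spleen than in the marrow and 5 were lower, with a median of -0.51, against 31.2% of all 21447 genes 2-fold apart, 15.6% higher and 15.6% lower, and a median of -0.26 in the brightest quartile. The 5 were Herpud1 (-2.09, 4.25-fold lower), Ssr1 (-1.37), Spcs3 (-1.13), Srp14 (-1.05) and Spcs2 (-1.03). These 5 were 14.3% of the list, close to the share of all genes, and 11 of the 35 lay above 0. On KO arrays 4 were higher, namely Ssr4 (1.62), Pdia4 (1.36), Hspa5 (1.35) and Sec61g (1.32), and Herpud1 was lower (-1.04), against 29.5% of 20320 genes 2-fold apart, 15.6% higher and 14.0% lower. The median of the 35 was 0.36, against 0.33 in the brightest quartile. The WT median was -0.25 with quantile normalization, -0.19 with cyclic loess and -0.15 with the median over probes, and the KO median was 0.12 with quantile normalization and 0.00087 with cyclic loess. Herpud1 was thus lower in the spleen in both genotypes. Limma's tissue term called 0 of the 35, where 7.05% of all genes passed (2.38% higher, 4.68% lower, and 19.9% unadjusted), and gave Herpud1 -1.56 (SE 0.548, unadjusted p = 0.0204, adjusted p = 0.145). Its adjusted p was 0.00311 with normexp and 0.0280 when only genes above background on every array entered.

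The same functions were read in further genes. Of 24 other ER folding genes 1 was at least 2-fold higher on KO in the marrow and 0 lower (median 0.16), and of 23 measured in the spleen 12 were higher and 1 lower (median 1.06). The spleen differences were largest for the prolyl isomerase Ppib (2.13) and for Erp29 (1.68) and Erp44 (1.57), and in the marrow Fkbp14 differed by 1.56 and the oxidase Ero1a by 0.90. Of 24 other genes of protein entry and glycosylation 0 were 2-fold apart in the marrow (median 0.02), while 8 were higher and 4 lower in the spleen (median 0.35). Srp19 differed there by 2.57 and the signal peptidase subunit Sec11a by 1.90, whereas the translocating chain protein Tram2 differed by -2.93 and the receptor subunit Srpr by -1.83.

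Of 22 other degradation genes 0 were higher and 2 lower in the marrow (median 0.02), and 5 were higher and 4 lower in the spleen (median 0.34). Aup1 differed by -1.11 and -2.21 and the ligase Rnf5 by -0.67 and -1.95 in marrow and spleen, while in the spleen Rnf139 differed by 1.63 and the conjugating enzyme Ube2j1 by 1.60. Of 14 heat shock genes that do not belong to the ER, 1 was higher and 0 lower in the marrow (median -0.29), and 10 were higher and 1 lower in the spleen (median 1.55). Most serve the cytosol, but Hspd1 (1.68 in the spleen) and Hspe1 (1.61), both among the 10, serve the mitochondria. The inducible Hsp70 gene Hspa1a had 3494 on spleen KO against 42.7 on spleen WT, or 7.25 on the log2 scale, and 127 on marrow KO and 209 on marrow WT. Dnaja1 differed by 3.04, Hsp90aa1 by 3.02 and Hsph1 by 2.85 in the spleen.

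Other genes of the stress response went in both directions. Of other genes of stress sensing and its targets, 33 could be read in the marrow, with 7 at least 2-fold higher and 2 lower (median 0.05), and of 30 in the spleen 12 were higher and 2 lower (median 0.54). In the marrow Trib3, a pseudokinase induced through Atf4 and Chop, had 2288 on KO and 465 on WT and so differed by 2.23 (4.69-fold higher). Asns, asparagine synthetase, had 4153 on marrow KO and 1253 on marrow WT (1.66), and Cebpb, also a factor of myeloid cells, 10742 on marrow KO and 2011 on marrow WT (2.35). Ppp1r15a, the phosphatase subunit that reverses eIF2 alpha phosphorylation, had 252 on marrow KO and 815 on marrow WT (-1.76). Ddit4, a stress-induced inhibitor of mTORC1 signalling, was also lower on marrow KO (-1.25). In the spleen Cebpb differed by 3.04, Atf3 by 2.53, Eif2s1 by 2.16 and Ddit4 by 1.83.

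Markers of other cell types also differed between KO and WT, not always in the direction of the ER genes. The main list of ER genes had a median of -0.04 in the marrow and 0.81 in the spleen. The part of other cell types in these differences was not tested. Of 12 neutrophil markers 11 were at least 2-fold higher on marrow KO and 0 lower (median 2.64), and of 11 measured in the spleen 7 were higher and 1 lower (median 2.02). Plasma cells carry this machinery at high level. Of 9 plasma cell markers measured in the marrow 0 were higher and 3 lower (median -0.28), and of 10 in the spleen 3 were higher and 3 lower (median -0.41). Those higher in the spleen were Pou2af1 (2.17), Ell2 (1.60) and Mzb1 (1.28), and those lower were Slamf7 (-3.25), Jchain and Irf4 (-1.38). In the marrow Jchain, Sdc1 (-1.35) and Slamf7 (-1.05) were lower. Pou2af1 and Mzb1 had the largest signals of the 10 on the spleen KO array (116064 and 38478), so they weigh most in its sum below. Jchain, the joining chain of secreted IgM and IgA, had 167 on marrow KO and 927 on marrow WT, and 5041 on spleen KO and 44399 on spleen WT, lower on both KO arrays (-2.54 and -2.25). The summed scaled signal of the plasma cell markers was 236 on marrow KO and 230 on marrow WT, and 309 on spleen KO and 133 on spleen WT. That of the B cell markers was 499.9 on marrow KO and 605 on marrow WT, and 1331 on spleen KO and 1010.3 on spleen WT. Of these 10 B cell markers 0 were higher and 4 lower in the marrow (median -0.76), and 3 were higher and 5 lower in the spleen (median -0.71). Elane was not well above background on either spleen array, and Mmp9 was not on spleen KO. Of 6 erythroid markers measured in each tissue 1 was higher and 1 lower in the marrow (median -0.21), and 4 were higher and 0 lower in the spleen (median 1.29). They summed to 5.72 on marrow KO and 8.24 on marrow WT, and to 27.9 on spleen KO and 7.75 on spleen WT. Of 10 macrophage markers 1 was higher and 0 lower in the marrow, and 4 were higher and 1 lower in the spleen. They summed to 25.5 on marrow KO and 20.0 on marrow WT, and to 131 on spleen KO and 52.9 on spleen WT. Of 8 T cell markers 2 were higher and 0 lower in the marrow, and of 7 in the spleen 2 were higher and 1 lower. Of 7 plasmacytoid dendritic cell markers 0 were 2-fold apart in the marrow, and 2 were higher and 1 lower in the spleen.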

How the data were processed

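RNA of B220 B cells was read on 4 Agilent 1-colour arrays, 1 per group, and groups were taken from the labels. The deposited scanner files hold linear intensity values made with Feature Extraction 10.5.1.1, background-corrected and not normalized between arrays, per the file headers. The deposited series matrix repeats this intensity at all 45018 spots of each array (tolerance 0), so it is linear, not centred and has no direction; its column medians were 85.4 (marrow KO), 82.7 (marrow WT), 37.9 (spleen KO) and 93.0 (spleen WT). In all, 0 columns belonged to no sample.

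Of 43379 gene spots per array, 72 to 85 with an outlier mark were left out (0 were saturated). The log2 signal was taken minus the array's 75th percentile, spots of a probe were averaged, and the brightest probe stood for a gene. Probes were named by accession through RefSeq's table (25035), by a file name that is a symbol (6327) or by their own file name (9744). A gene was measured where its probe was well above background on at least 1 array of a comparison, and a gene dim on 1 array counted by its lower bound. Brightness quartiles follow the mean of 4 arrays.

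Genes at least 2-fold apart were counted without a test. The test was limma 3.58.1 (R 4.3.3) with tissue and genotype terms, checked on simulated data; other steps used Python 3.11.15, pandas 2.3.3 and numpy 2.4.6. Alternatives were other scalings, normexp (offset 50), the median over probes, other filters and a fold of 1.5; the probe choice without spleen KO and limma's intensity trend were chosen after seeing the data. Probe pairs had to agree in transcript and genome order, which left out Sel1l. The members and lists were chosen with earlier results of these data known. Named from each other list were up to 4 genes per tissue with the largest difference among those above background on both arrays, and any gene past limma's threshold. Mm9 positions are those of the files, and GRCm38.p6 was used for names and promoters. The ERSE, ERSE-II and UPRE search patterns came from general knowledge of these elements, not from a file of the study, and are named without their letters.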

Additional observations from a re-analysis of the deposited data

Results flagged for a closer look

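For 7 of the 35 genes the difference between the array labelled KO and WT had opposite signs in spleen and marrow and the tissues lay at least 2-fold apart; with 1 array per group this difference was not tested. Spleen difference minus marrow difference was 1.81 for Hspa5 (1.59 and -0.22), 1.55 for Hsp90b1 (1.501 and -0.04), 1.40 for Atf6 (1.17 and -0.23), 1.23 for Dnajb9 (0.58 and -0.65), 1.22 for Pdia6 (1.17 and -0.05), 1.09 for Edem1 (1.02 and -0.07) and 1.05 for Herpud1 (0.33 and -0.72). All 7 were higher in the spleen, where the median of the brightest quartile of genes was also above 0. The marrow values of Hsp90b1, Pdia6 and Edem1 were smaller than the median spot SD of 0.101 to 0.141, so their sign there is uncertain. Other genes of the list had a similar gap without a change of sign, such as Srp9 (1.48), Sec61b (1.46) and Ssr4 (1.32). The share of all genes that meet this rule was not counted. The sign of the spleen value changed with the processing for Pdia6, Edem1, Dnajb9 and Herpud1. It did not for Hspa5, Hsp90b1 and Atf6 under the settings run, none of which scaled to the spike-ins. Hspa5 has a single probe, so the median over probes could not change it.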

How the results depend on the processing

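The median spleen difference of the 35 genes (0.81) was 1.24 with the array median subtracted, 0.24 with quantile normalization, 0.16 with cyclic loess and 0.50 with the median over probes. The spleen count of 15 (14 higher, 1 lower) became 5 with quantile normalization (2 higher, 3 lower), 4 with cyclic loess (0 higher, 4 lower) and 25 with a fold of 1.5 (21 higher, 4 lower). The WT tissue count of 5 became 9 with the array median, 3 with quantile normalization, cyclic loess, normexp or the median over probes, and 21 with a fold of 1.5. That fold also moved the KO tissue count of 5 to 17 (14 higher, 3 lower) and the marrow count of 0 to 5 (1 higher, 4 lower). Of all genes with a value, 34.3% were at least 1.5-fold higher and 23.7% lower in the spleen, and 14.1% and 14.7% in the marrow. Between tissues the shares were 25.03% and 28.22% on WT arrays (5 and 16 of the 35), and 29.36% and 22.87% on KO arrays. Pdia6 (-0.46) and Edem1 (-0.19) reversed in the spleen with the median over probes, and so did 3 genes not 2-fold apart before, Sec61a1 (0.99 to -1.56), Canx (0.91 to -0.43) and Dnajb9 (0.58 to -0.11). The cause was not tested. Limma's tissue term called 1 of the 35 (Herpud1) with normexp and 1 with only genes above background on every array, and its genotype term called 0 under every setting run. Over all genes the genotype term called 2, but 443 with the array median, 632 with normexp, 593 without the filter, 461 with the filter on every array, 373 with an intensity trend, 8 with the median over probes and 0 with cyclic loess; the tissue term called 1556, with a range of 944 to 2689. The probe choice made without spleen KO gave the same counts for the 35. No paired analysis was possible because each group has 1 array and the labels give no replicate numbers to pair by. With tissue in the limma fit, its genotype term already compares KO and WT within a slide, with 1 residual degree of freedom. The spleen comparison has no value without the spleen KO array, and its low signal limits dim genes.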
